A study of Mus musculus with 40 samples.

Results

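Ptgs2, Arl4d, Arc, Homer1, Bdnf, Nptx2, Dusp1, Dusp6, Btg2 and Ier2 are 10 of the 55539 features counted by bulk RNA sequencing in female 3xTg-AD mice, from left somatomotor cortex. They were taken by gene symbol, as genes that neuronal activity induces and that do not encode transcription factors, together with inhibitors that feed back on the same signals. Ptgs2 and Arl4d were selected on their difference between time points after injury in these libraries, so their levels over time are a description and carry no test here. The 3xTg-AD line, used on a C57BL/6J background at 2 to 4 months of age, carries human App and tau transgenes under a neuronal Thy1 promoter, and every group shared this genotype, Sham included. Closed-head injury (CHI) was a weight drop under anesthesia, given once daily. Tissue was taken 30 min, 4 h or 24 h after the first (1xCHI), the third (3xCHI) or the fifth (5xCHI) injury. The group before the first injury was Sham, in which mice exposed to anesthesia without injury for different numbers of days were pooled. The group before the third injury was 2xCHI at 24 h, and the group before the fifth was 4xCHI at 24 h. The numbers of libraries were 4 for Sham and for each of 1xCHI, 3xCHI and 5xCHI at 24 h, 2 for 3xCHI at 4 h, and 3 for each of the other groups, 39 in all. Sample 30, a further 3xCHI 4 h library that stood apart in protein data, was left out.

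Synaptic activity and calcium entry switch on a first wave of genes in neurons within minutes, without the need for new protein, and much of this wave is driven through the kinases of the ERK pathway and through the factors CREB and SRF. Some of these genes encode transcription factors. Those described here act at synapses (Arc, Homer1, Bdnf, Nptx2), in lipid signalling (Ptgs2), at membranes and the actin cytoskeleton (Arl4d), in shutting off MAP kinases (Dusp1, Dusp6) and in mRNA decay (Btg2), while Ier2 encodes a nuclear protein. In cortex such transcripts are short-lived, and their level follows handling, sensory input and anesthesia as well as injury.

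The binding site of CREB, TGACGTCA (CRE), was searched for in RefSeq promoter windows of GRCm38.p6, each with 250 bases before and 50 bases after a start site. Windows were found for 7 of the 10 genes, 14 in all, and none was matched for Arc, Nptx2 or Ier2. The CRE reads the same on both strands and contains both of its shorter cores, TGACG and CGTCA. A complete CRE was in the windows of 3 of the 7 genes, Arl4d, Dusp1 and Btg2, at 26, 143 and 166 bases before the start site. By window this is 3 of 14, against 1.79% of the 32851 windows of all genes. Such a core on either strand was in a window of 6 of the 7 genes, and Dusp6 held none. Counted by window, as Bdnf has 7 and Homer1 2, it was in 6 of 14 windows, against 20.81% of all windows. The bases before the start sites of the 3 genes with a complete CRE, and of Homer1, which has 3 separate cores, are given below 5′ to 3′ on the strand of the gene, with complete sites and cores in capitals. For Ptgs2 the single core lies 14 bases after the annotated start, and 30 bases from that start are given. The stretch of Dusp1 ends 50 bases before its start, since longer annotated transcripts begin there. The annotated genes of Dusp1 and Homer1 reach farther upstream, to positions 26562128 and 93299635, so both stretches lie inside them. The stretches are chr11:101665291-101665540 (Arl4d, plus strand), chr1:134079156-134079405 (Btg2, minus strand), chr17:26508523-26508722 (Dusp1, minus strand), chr13:93303507-93303756 (Homer1, plus strand) and chr1:150100031-150100060 (Ptgs2, plus strand). A match describes letters only and shows no binding.
Arl4d: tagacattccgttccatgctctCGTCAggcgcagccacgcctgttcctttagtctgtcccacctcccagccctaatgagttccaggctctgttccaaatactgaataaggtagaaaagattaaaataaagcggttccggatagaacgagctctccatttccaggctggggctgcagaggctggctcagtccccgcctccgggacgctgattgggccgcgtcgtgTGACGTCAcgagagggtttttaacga
Btg2: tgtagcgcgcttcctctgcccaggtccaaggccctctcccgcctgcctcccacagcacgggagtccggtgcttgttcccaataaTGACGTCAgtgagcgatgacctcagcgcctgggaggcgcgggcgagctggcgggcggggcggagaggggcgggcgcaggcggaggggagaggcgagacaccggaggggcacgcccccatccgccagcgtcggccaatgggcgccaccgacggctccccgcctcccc
Dusp1: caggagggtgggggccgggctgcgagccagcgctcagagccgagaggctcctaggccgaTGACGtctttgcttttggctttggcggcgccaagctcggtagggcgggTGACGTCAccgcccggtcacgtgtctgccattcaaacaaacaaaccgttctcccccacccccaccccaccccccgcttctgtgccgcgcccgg
Homer1: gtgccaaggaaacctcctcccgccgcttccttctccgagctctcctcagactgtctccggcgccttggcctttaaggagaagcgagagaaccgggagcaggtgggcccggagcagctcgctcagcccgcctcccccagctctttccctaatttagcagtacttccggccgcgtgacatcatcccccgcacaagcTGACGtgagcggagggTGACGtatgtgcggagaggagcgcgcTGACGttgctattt
Ptgs2: agagtcaccactaCGTCAcgtggagtccgc

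Libraries held 15926014 to 27859547 counts, with a median of 19028778, and the 10 genes had between 84 and 13611 counts in every library, so all 10 passed the filter that left 15224 features. Levels are counts per 1000000 counts of the library (CPM), scaled between libraries. All 5 excitatory neuron markers of cortex were detected, with Slc17a7 at 926 to 1358 CPM and Camk2a at 2043 to 4787 CPM. Samples 10 (5xCHI 4 h) and 11 (5xCHI 24 h) stood apart, with 5 summed astrocyte markers at 2872 and 3697 CPM against a median of 963 CPM over the 39 libraries. Their summed hippocampal dentate markers were 49.8 and 48.8 CPM (median 22.7 CPM). Summed choroid plexus markers (median 20.0 CPM) were high in samples 31 (5xCHI 30 min, 2503 CPM) and 32 (5xCHI 4 h, 1296 CPM). They were also high in samples 24 (4xCHI 24 h, 855 CPM) and 12 (5xCHI 24 h, 408 CPM). Sample numbers 1 to 18 and 19 to 40 were also known to separate in these data, although no label names this split as a batch. Of the 30 min libraries 6 of 9 were in the lower range, and of the 10 pre-injury libraries 1 was. In bulk tissue, fewer cells of a type and less RNA per cell cannot be told apart. Each library is from a separate mouse, and the labels add no litter or day.

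Ptgs2 (chromosome 1, positions 150100031 to 150108227, GRCm38, here and for the other genes) encodes cyclooxygenase-2, the inducible enzyme that turns arachidonic acid into the precursor of prostaglandins, and excitatory neurons of cortex make it after strong activity. Its level was high at 30 min in 3 libraries. Ptgs2 at 30 min after the third injury was at 44.7, 13.9 and 94.2 CPM, against 11.6, 8.93 and 10.4 CPM before that injury. After the fifth injury it was at 12.2, 87.1 and 15.1 CPM, against 11.9, 10.5 and 12.9 CPM before. After the first injury it was at 18.5, 20.2 and 13.5 CPM, against 7.91, 14.1, 17.9 and 8.34 CPM in Sham. Samples 4, 22 and 8 thus held 44.7 to 94.2 CPM, while the other 6 libraries at 30 min lay between 12.2 and 20.2 CPM. Only after the third injury did the 30 min and pre-injury libraries not overlap. In order of group means, 3xCHI at 30 min was highest at 50.9 ± 40.5 CPM (SD, n = 3), followed by 5xCHI at 30 min at 38.1 ± 42.4 CPM (SD, n = 3), 1xCHI at 30 min at 17.4 ± 3.47 CPM (SD, n = 3) and 1xCHI at 4 h at 14.9 ± 3.99 CPM (SD, n = 3). The other 8 groups had means between 9.17 and 12.1 CPM, and each neighbouring pair in the whole order differed by less than the larger SD of the pair. Averaged over the 3 injuries, the fitted log2 fold of Ptgs2 at 30 min over pre-injury was 1.51 ± 0.290 (SE), or 2.84-fold, and all 9 libraries at 30 min were above the pre-injury median of 11.0 CPM. Without sample 8 the log2 fold was 1.02. At 4 h the averaged log2 fold was 0.15 ± 0.305 (SE), and at 24 h it was -0.19 ± 0.274 (SE), with 5 of 12 libraries above the pre-injury median.

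Arl4d (chromosome 11, 101665541 to 101667832) encodes a small GTPase of the Arf family that recruits cytohesins to the plasma membrane, where they act on Arf6 and the actin skeleton. It was high at 30 min in the same 3 libraries as Ptgs2 and in 2 more. The 30 min libraries after the first injury were at 70.2, 51.6 and 21.2 CPM, against 16.5, 34.2, 18.9 and 22.1 CPM in Sham. After the third injury they were at 77.3, 34.5 and 118 CPM, against 26.1, 17.1 and 34.1 CPM before it. After the fifth they were at 30.9, 75.5 and 32.4 CPM, against 11.8, 38.0 and 31.3 CPM before it. Samples 13 and 14, the first-injury libraries at 70.2 and 51.6 CPM of Arl4d, were at 18.5 and 20.2 CPM of Ptgs2, close to the highest Sham library. As with Ptgs2, the libraries separated without overlap only after the third injury, where the lowest 30 min library, at 34.5 CPM, was just above the highest pre-injury library, at 34.1 CPM. In order of group means, 3xCHI at 30 min was highest at 76.6 ± 41.8 CPM (SD, n = 3), then 1xCHI at 30 min at 47.7 ± 24.7 CPM (SD, n = 3) and 5xCHI at 30 min at 46.3 ± 25.3 CPM (SD, n = 3), while the other 9 groups lay between 18.2 and 27.0 CPM. Each neighbouring pair in this order also differed by less than the larger SD of the pair. The averaged log2 fold at 30 min was 1.13 ± 0.241 (SE), or 2.19-fold, with 8 of 9 libraries above the pre-injury median of 24.1 CPM. At 4 h and 24 h the averaged log2 folds were -0.30 ± 0.256 and -0.36 ± 0.227 (SE), and 11 of 12 libraries at 24 h were below the pre-injury median.

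**Figure D1:**
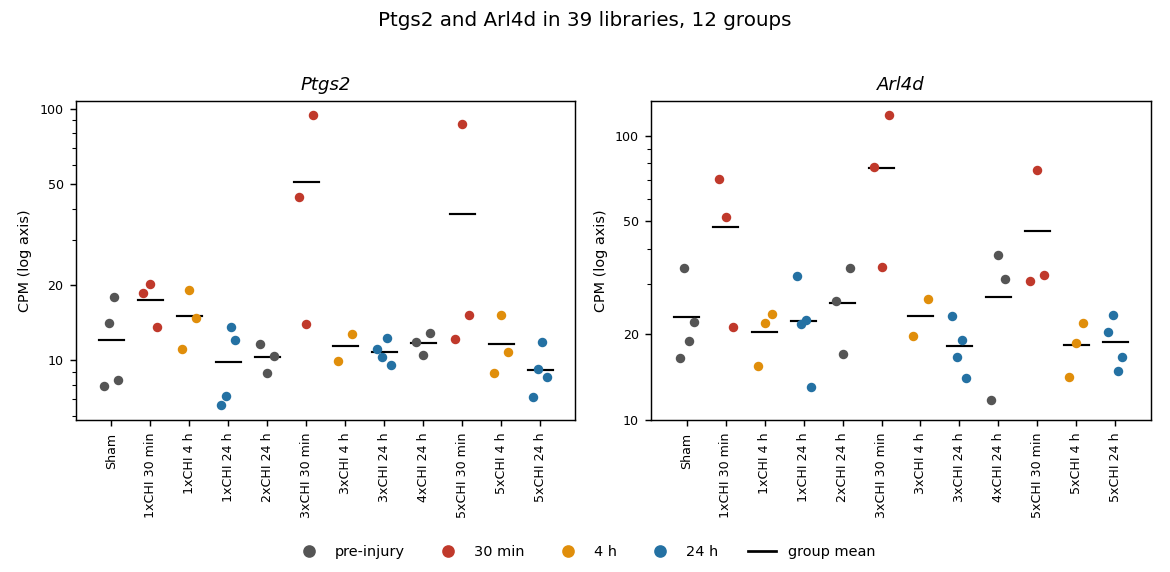
Levels of Ptgs2 and Arl4d in CPM (log axis) in each of the 39 libraries, by injury and time group, with points coloured by time and a bar at each group mean. Samples 4, 22 and 8 carry the 3 highest values of Ptgs2, 44.7 to 94.2 CPM, and all lie at 30 min.

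Sample number range bears on this comparison, so the difference of 30 min from 24 h was also taken within each range, as a description. For Ptgs2 the mean log2 CPM at 30 min exceeded that at 24 h by 1.62 within samples 1 to 18 (6 and 5 libraries) and by 1.28 within samples 19 to 40 (3 and 7 libraries), and by 1.40 over all. For Arl4d the differences were 1.16, 1.40 and 1.37. For the other 8 genes the differences ran from 0.56 (Homer1) to 1.54 (Arc) within samples 1 to 18 and from 0.15 (Homer1) to 1.08 (Btg2) within samples 19 to 40. These are differences from 24 h and not from pre-injury, and the share of all features above 0 was not computed.

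Among the genes that act at synapses, Arc (chromosome 15, 74669083 to 74672570) encodes a capsid-like protein that helps remove AMPA receptors from the membrane. Its level before injury varied from 58.7 to 486 CPM. Sham libraries were at 121, 486, 215 and 179.8 CPM, and the libraries before the fifth injury at 68.3, 471 and 301 CPM. Arc at 30 min after the third injury was at 402, 183 and 626 CPM, against 213, 58.7 and 176 CPM before. After the first it was at 302, 200.1 and 72.1 CPM, and after the fifth at 261, 437 and 159 CPM. All 8 libraries at 4 h (74.9 to 144 CPM) and all 12 at 24 h (41.2, median 117, to 156 CPM) were below the pre-injury median of 196 CPM.

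Homer1 (chromosome 13, 93299635 to 93405129) encodes scaffolds that tie metabotropic glutamate receptors to intracellular calcium stores, and its short, activity-induced form uncouples them. The counts join both forms, so the induced one cannot be read separately. Homer1 was at 339, 312 and 271 CPM at 30 min after the first injury, inside the Sham range of 133 to 361 CPM. After the third injury it was at 191, 235 and 224 CPM, against 288, 196 and 242 CPM before it, so that sample 4 lay below all 3 and the groups otherwise overlapped. After the fifth it was at 209, 183 and 213 CPM, inside the range of the 242, 179 and 197 CPM before it. Bdnf (chromosome 2, 109674700 to 109727007) encodes a neurotrophin that signals through the receptor TrkB, and its counts likewise join transcripts from several promoters. Bdnf at 30 min after the first injury was at 41.4, 40.9 and 29.0 CPM, and the first 2 of these are its highest values in the series. After the fifth injury it was at 9.54, 16.5, 22.6 and 19.9 CPM at 24 h, all below the 26.2, 27.5 and 27.0 CPM before that injury.

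Nptx2 (chromosome 5, 144545902 to 144557478) encodes a secreted pentraxin that gathers AMPA receptors at synapses onto inhibitory neurons. Its 2 highest values were at 4 h and not at 30 min. Sample 16 (1xCHI 4 h) was at 116 CPM and sample 10 (5xCHI 4 h) at 92.1 CPM, while the other 6 libraries at 4 h lay between 27.8 and 35.4 CPM. In samples 16 and 10 Dusp6 was at 23.0 and 24.4 CPM, below every other library except sample 11. After the first injury Nptx2 at 30 min was at 71.1, 65.4 and 37.1 CPM, against 32.0 to 49.1 CPM in Sham. Sample 11 (5xCHI 24 h) held the lowest value of Arc, Homer1, Bdnf, Nptx2 and Dusp6 in the 39 libraries, and it is the library with the highest astrocyte markers. It also held the lowest summed excitatory neuron markers, 3158 CPM against a median of 5074 CPM. Its summed microglia (466 CPM) and oligodendrocyte markers (7074 CPM) were the highest. Over the 39 libraries, log2 CPM of Bdnf and of Homer1 had Pearson correlations of -0.50 and -0.50 with summed astrocyte markers, and Bdnf one of -0.59 with microglia markers, samples 10 and 11 included. The part of these markers in the result was not tested.

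Dusp1 (chromosome 17, 26505590 to 26562128) and Dusp6 (chromosome 10, 99263231 to 99267489) encode phosphatases that switch off MAP kinases, Dusp1 in the nucleus and Dusp6, selective for ERK, in the cytoplasm. Dusp1 at 30 min after the third injury was at 126, 39.1 and 135 CPM, against 39.3, 23.6 and 29.9 CPM before it. After the fifth it was at 53.9, 139 and 32.8 CPM, against 23.0, 109 and 53.3 CPM before it. After the first it was at 48.2, 57.8 and 20.0 CPM, inside the 27.5 to 69.5 CPM of Sham except for the lowest. Dusp6 followed the same libraries with a smaller range, with 153, 126 and 108 CPM in samples 22, 8 and 4 and 54.5 to 72.7 CPM in the other 6 at 30 min.

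Btg2 (chromosome 1, 134075170 to 134079120) encodes an antiproliferative protein that promotes the shortening of mRNA tails, and Ier2 (chromosome 8, 84661331 to 84662852) encodes a small nuclear protein of the immediate early response. Btg2 at 30 min after the third injury was at 89.7, 15.1 and 136 CPM, against 10.4, 10.3 and 12.3 CPM before it, so the groups did not overlap. After the fifth it was at 19.2, 102 and 19.4 CPM, against 12.8, 53.4 and 28.0 CPM before it. After the first it was at 22.5, 31.9 and 8.97 CPM, against 16.5, 32.4, 18.9 and 11.2 CPM in Sham. Ier2 was at 36.9, 8.53 and 38.9 CPM after the third injury, against 9.00, 8.54 and 8.65 CPM before it. The 8.53 CPM of sample 5 was as low as the pre-injury libraries. After the first injury Ier2 was at 20.3, 25.5 and 5.61 CPM, against 12.0, 24.5, 9.19 and 6.93 CPM in Sham. After the fifth it was at 12.4, 39.3 and 9.74 CPM, against 7.86, 35.8 and 14.4 CPM before it, and the groups overlapped after both of these injuries.

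**Figure D2:**
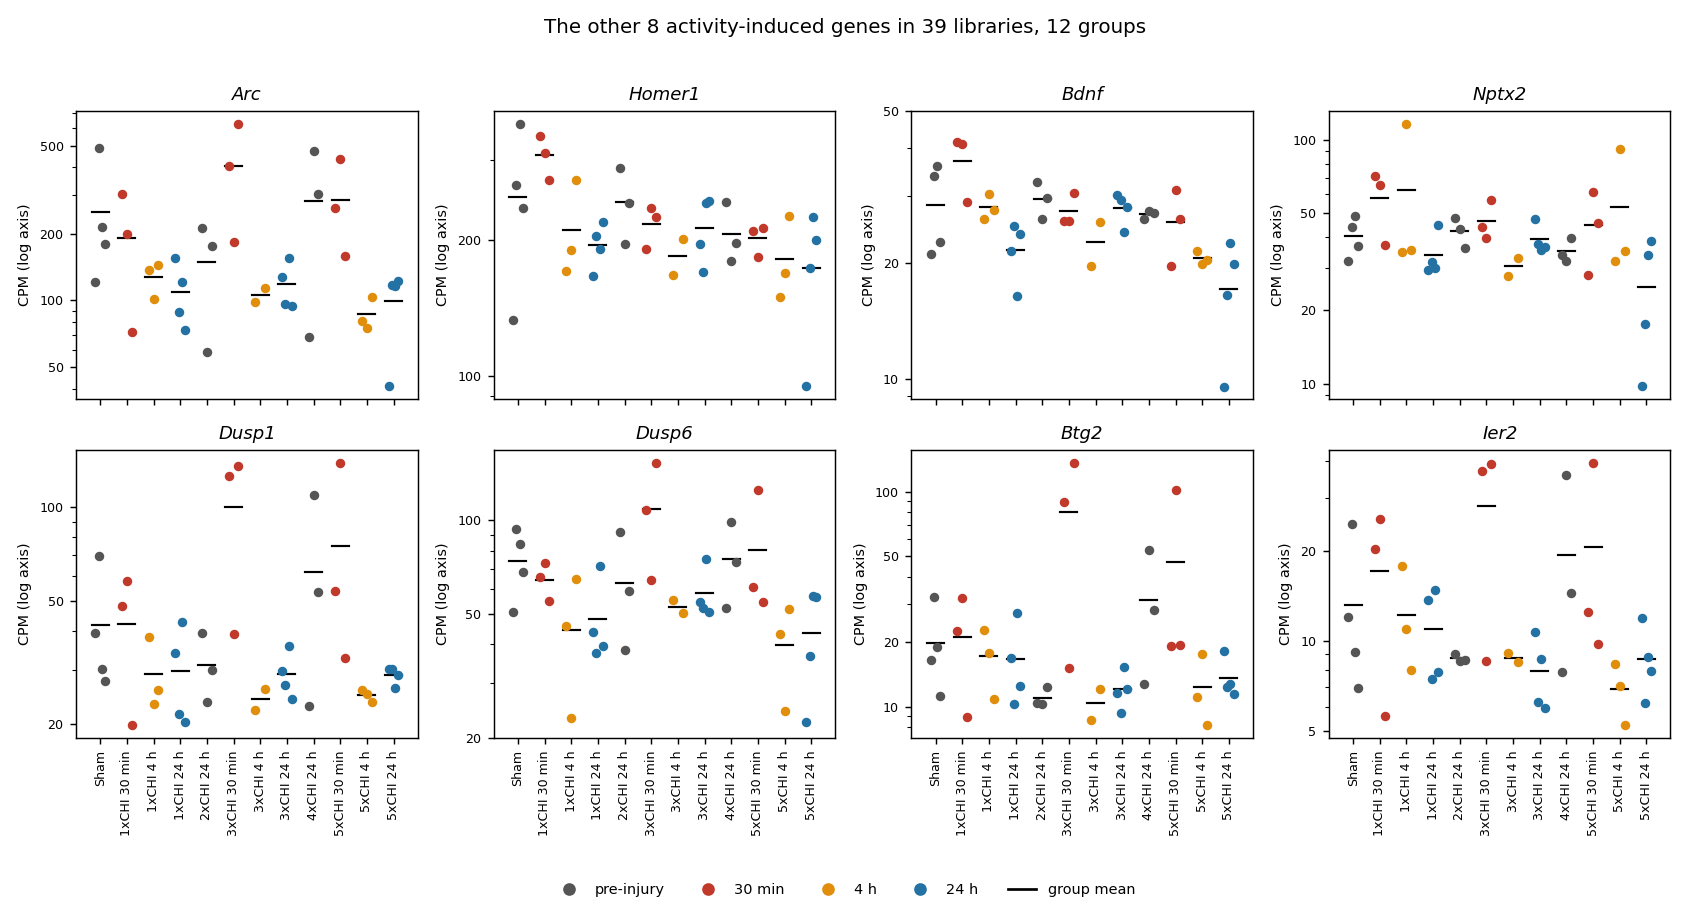
Levels of Arc, Homer1, Bdnf, Nptx2, Dusp1, Dusp6, Btg2 and Ier2 in CPM (log axes) in each of the 39 libraries, by injury and time group, with a bar at each group mean. Pre-injury points of Arc, Dusp1, Btg2 and Ier2 reach into the 30 min range, as in sample 25 of 4xCHI 24 h, with 471 CPM of Arc and 109 CPM of Dusp1.

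The question of each contrast with the group before injury was whether the level of these genes at a given time differed from the level that the next injury found. For the 8 genes other than Ptgs2 and Arl4d it was tested in edgeR (quasi-likelihood test), with p adjusted over 15224 features by Benjamini-Hochberg. These 8 were also chosen with earlier results of these data known. A count of them beside the share of all features therefore describes the set and does not test it. At 30 min, averaged over the 3 injuries, Btg2 was 2.27-fold higher (log2 fold 1.18 ± 0.337, SE, 8 of 9 libraries above the pre-injury median, edgeR adjusted p = 0.248), Ier2 1.64-fold (0.71 ± 0.312, SE, 7 of 9, adjusted p = 0.263) and Dusp1 1.58-fold (0.66 ± 0.267, SE, 7 of 9, adjusted p = 0.252). None of the 8 passed the adjusted threshold of 0.05 (0.248 to 0.890 by edgeR), and 1 feature of all, Fosb, did (0.00657%). These 3 of 8 had an unadjusted p under 0.05, against 10.0% of all features called higher at that level. Arc (log2 fold 0.36 ± 0.317), Nptx2 (0.34 ± 0.234), Dusp6 (0.23 ± 0.218), Bdnf (0.07 ± 0.122) and Homer1 (0.04 ± 0.144, all SE) were not called at that level. The median log2 fold of the 8 was 0.35, against 0.01 over all features. With the sample number range as a covariate, the log2 folds at 30 min were 1.66 for Ptgs2, 1.04 for Arl4d, 1.07 for Btg2, 0.54 for Dusp1, 0.51 for Dusp6 and 0.46 for Ier2. In that fit 2 of the 8 genes, Btg2 and Dusp6, were called at an unadjusted p under 0.05, and none at the adjusted threshold. Of all 15224 features 527 were called higher or lower at the unadjusted level in it. Without sample 8 the log2 folds were 0.75 for Btg2, 0.40 for Dusp1 and 0.42 for Ier2. In a fit of only the groups compared, Btg2 and Nptx2 were called at the unadjusted level, and Dusp1 and Ier2 were not. These 2 of 8 stand against 3843 of 15583 features called higher or lower in that fit. Without sample 8 or without sample 14, 1 of the 8 had an unadjusted p under 0.05, and without sample 27 Btg2 passed the adjusted threshold (edgeR adjusted p = 0.0355).

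At 4 h and 24 h the 8 genes mostly lay below pre-injury, with a log2 fold above 0 for Nptx2 at 4 h (0.24 ± 0.244, SE). That value rests on samples 16 and 10, since 6 of the 8 libraries lay below the pre-injury median and it was -0.033 without sample 16 and 0.022 without samples 10 and 11. At 4 h the averaged log2 fold was -1.05 ± 0.341 (SE) for Arc, lower in 8 of 8 libraries than the pre-injury median (edgeR adjusted p = 0.312), -0.73 ± 0.287 for Dusp1 (7 of 8, adjusted p = 0.383) and -0.64 ± 0.232 for Dusp6 (8 of 8, adjusted p = 0.351). None of the 8 genes passed the adjusted threshold by edgeR (0% of all features did, and 1725 had an unadjusted p under 0.05). These 3 of 8 were lower at an unadjusted p under 0.05, against 4.63% of features. The fit with the sample number range gave -0.98 for Arc, -0.87 for Dusp1 and -0.82 for Ier2 at 4 h, which were called at the unadjusted level, and -0.35 for Dusp6, which was not. Leaving out Sham sample 6 or 2xCHI sample 21 brought the 4 h count to 5 of 8. At 24 h Arc was at 0.498 of its pre-injury level, with a log2 fold of -1.01 ± 0.296 (SE, 12 of 12 libraries below the median). The log2 fold was -0.56 ± 0.250 for Dusp1 (10 of 12), -0.51 ± 0.204 for Dusp6 (10 of 12) and -0.37 ± 0.113 for Bdnf (9 of 12, all SE), and for Dusp1 it was -0.33 without sample 25. These 4 of 8 had an unadjusted p under 0.05, against 1.19% of all features called lower at that level. None of the 8 nor any other feature (0%, and 584 at an unadjusted p under 0.05) passed the adjusted threshold by edgeR (adjusted p = 0.990 for each of the 8). All 8 had a log2 fold below 0 at 24 h, as did 46.5% of all features. Without samples 10 and 11 the 24 h log2 folds were -0.92 for Arc and -0.31 for Bdnf, and 4 of 8 were again called at the unadjusted level. Without sample 19 of 2xCHI 24 h 2 of the 8 were. The contrasts at 30 min, at 4 h and at 24 h share their pre-injury libraries, so a high pre-injury library lowers all 3 of them.

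The single injuries were tested in the same way. After the third injury, 4 of 8 were higher at 30 min at an unadjusted p under 0.05, against 1.16% of features: Btg2 7.30-fold (log2 fold 2.87 ± 0.631, SE), Dusp1 3.23-fold (1.69 ± 0.483, SE), Ier2 3.22-fold (1.68 ± 0.567, SE) and Arc 2.71-fold (1.44 ± 0.572, SE). Their edgeR adjusted p was 0.394 for Btg2 and 1.00 for the others, so none passed, while Btg2 passed by DESeq2, with no filter on low counts, and without sample 5. Without sample 21 or without sample 22 Arc was not called at the unadjusted level, which left 3 of 8, and Dusp6 was called as a further gene, 5 of 8, in several alternatives, among them DESeq2 and the covariate. For Ptgs2 the log2 fold after the third injury was 2.31 ± 0.524 (SE), or 4.94-fold, and for Arl4d it was 1.57 ± 0.432 (SE), or 2.98-fold. Without sample 22 these were 1.51 (2.84-fold) for Ptgs2 and 1.12 (2.17-fold) for Arl4d. After the first injury 0 of 8 were called higher (13.0% of features were), with Bdnf at 0.38 ± 0.199 (SE) the nearest, and after the fifth 0 of 8 (3.52% of features). With the sample number range as a covariate, and also without Sham sample 35, Homer1 and Bdnf were called after the first injury, and Bdnf alone without sample 20, without sample 27, or without samples 10 and 11. Arl4d had log2 folds of 1.05 ± 0.395 after the first and 0.77 ± 0.428 after the fifth, and Ptgs2 0.52 ± 0.474 and 1.69 ± 0.517 (all SE). The values after the fifth injury rest on sample 8, without which they were 0.22 for Ptgs2 and 0.23 for Arl4d, and that of Arl4d was 0.41 without sample 24. That of Arl4d after the first was 0.66 without sample 13.

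Lower levels were called mostly after the fifth injury. At 4 h 5 of 8 were lower at an unadjusted p under 0.05, against 1.81% of features, from -0.91 ± 0.392 for Dusp6 to -1.70 ± 0.578 for Arc (log2 fold, SE), with Ier2 at -1.49, Btg2 at -1.34 and Dusp1 at -1.32. At 24 h 6 of 8 were, against 2.18%: these same 5 and Bdnf, at -0.65 ± 0.202 (SE), whose 4 libraries lay below all 3 from before the injury. These calls rest on the libraries taken before the fifth injury, of which sample 25 held 471 CPM of Arc and sample 24 held 68.3 CPM. Without sample 25 the calls after the fifth injury went from 5 to 0 at 4 h and from 6 to 1, Bdnf, at 24 h. Without samples 10 and 11, and also with the sample number range as a covariate, Dusp6 was not called at either time, which left 4 of 8 at 4 h and 5 of 8 at 24 h. Without sample 12 the 24 h count was 3, without sample 33 or 34 it was 4, and without sample 32 the 4 h count was 3. At 24 h after the first injury 2 of 8 were lower, Arc and Bdnf (2.47% of features). This count was 0 without Sham sample 20, 4 without Sham sample 6 and 1 without any one of samples 17, 18, 28 and 35 or with the covariate. None of the 8 was lower at 4 h after the first (3.57%), at 4 h after the third (0.952%) or at 24 h after the third (2.13%). In a fit of only the groups compared, Arc and Dusp6 were called at 4 h after the first injury, as they were with no filter and without Sham sample 6, and Homer1, Bdnf and Nptx2 were called at 4 h after the third. None of the single tests of the 8 passed the adjusted threshold by edgeR.

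Whether the 30 min response differed between the 3 injuries was tested for the same 8 genes with one F test each. None passed the adjusted threshold by edgeR (adjusted p = 0.996 for each, 0% of features passed). Btg2 and Dusp1 had an unadjusted p under 0.05, 2 of 8 against 4.45% of features. Leaving out sample 4, 20, 21, 22, 27 or 29 made this count 1, and leaving out sample 5, 8 or 24 made it 4. The number of injuries at 24 h, from 1xCHI to 5xCHI, was tested over 5 groups, and again none of the 8 passed by edgeR (lowest adjusted p = 0.969, 0% of features). Bdnf and Arc had an unadjusted p under 0.05, 2 of 8 against 4.83% of features. Bdnf group means at 24 h were 21.7, 29.4, 28.0, 26.9 and 17.1 CPM after 1, 2, 3, 4 and 5 injuries, lowest after the fifth and next lowest after the first. Without any one of samples 11, 18, 23, 25, 28 and 40 the count was 1 of 8, and without sample 24 it was 5.

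**Figure D3:**
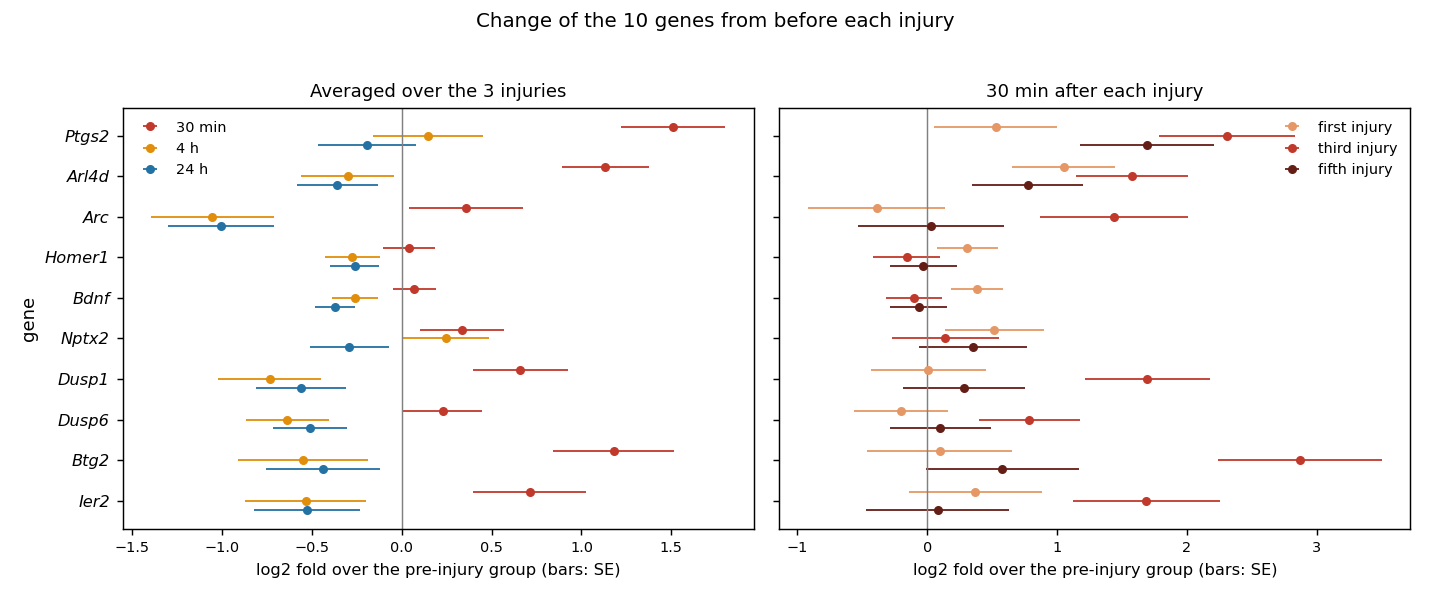
Fitted log2 fold over the pre-injury group for each of the 10 genes, with bars of 1 SE, at each of the 3 times averaged over the 3 injuries (left) and at 30 min after each injury (right). Among the 8 tested genes Btg2 is highest in the 30 min average (1.18) and after the third injury (2.87), while Ptgs2 and Arl4d, selected on time, are at 1.51 and 1.13 in that average.

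Library by library, several of the 10 genes were high together in some mice of a group and not in others. Sample 22 was above every pre-injury library in 8 of the 10 genes, sample 8 in 7 and sample 4 in 6, while sample 5, from the same group as 22 and 4, and samples 7 and 31, from the same group as 8, were above them in 0. In the first-injury group, samples 13 and 14 were each above every pre-injury library in 4 genes, and sample 27 in 0. Before injury, sample 20 (Sham) was above every 24 h library in 9 of the 10 genes and samples 25 (4xCHI 24 h) and 35 (Sham) in 6 each. All of these counts include Ptgs2 and Arl4d, which were selected on time. The share of all features above every pre-injury or every 24 h library was not computed for any sample. In samples 20 and 25 Arc was at 486 and 471 CPM, within the 402 to 626 CPM of samples 4, 8 and 22, whereas Ptgs2 was at 14.1 and 10.5 CPM, against 44.7 to 94.2 CPM. Btg2 lay between, at 32.4 and 53.4 CPM against 89.7 to 136 CPM. Summed excitatory neuron markers were 4261, 5554 and 5353 CPM in samples 4, 8 and 22, and 4892 and 3896 CPM in samples 20 and 25, against a median of 5074 CPM.

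**Figure D4:**
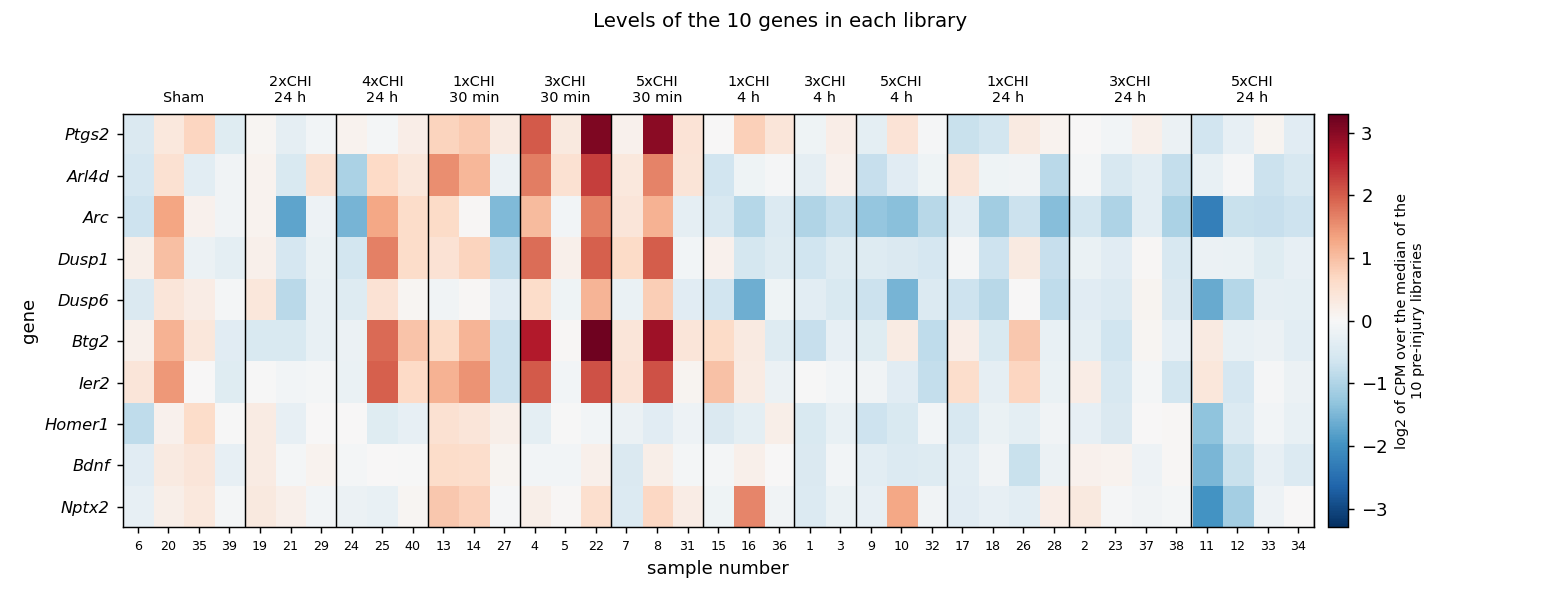
Level of each of the 10 genes in each library as log2 of its CPM over the median of the 10 pre-injury libraries, in columns by sample number within group. The upper 7 rows are high together in samples 4, 22 and 8 and in part in samples 20 and 25, while the lower 3 rows (Homer1, Bdnf and Nptx2) are highest in other libraries and lowest in sample 11.

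Over the 39 libraries the genes are described in 2 sets, which were drawn from these same correlations and overlap in their values. Libraries share groups and scaling. Among Ptgs2, Arl4d, Arc, Dusp1, Dusp6, Btg2 and Ier2 the 21 Pearson correlations of log2 CPM ran from 0.59 to 0.93 with a median of 0.76, highest for Dusp1 with Btg2. Among Homer1, Bdnf and Nptx2 the 3 ran from 0.48 to 0.75. Between the sets, 21 pairs ran from -0.03 to 0.52 with a median of 0.27. After the mean of each group was taken away, the medians were 0.66, 0.62 and 0.20, with a highest value between the sets of 0.53 and a lowest within the second set of 0.36. The features most like Ptgs2 outside the 10 genes were Fosb (r = 0.89), Npas4 (0.84), Ccn1 (0.78), Fos (0.78) and Gadd45g (0.75), and those most like Arl4d were Fos (0.87), Junb (0.87), Irf2bp2 (0.86), Ccn1 (0.86) and Fosb (0.84), each over 39 libraries. Fosb, Npas4, Fos and Junb encode activity-induced transcription factors. The rank correlation of Ptgs2 with its closest gene of the 10, Btg2, was 0.56 against a Pearson r of 0.80. By rank the closest gene was Nptx2, of the other set, at 0.68 (Pearson r 0.52).

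Of 17 prostaglandin genes, 15 were tested and 0 were called at an unadjusted p under 0.05 at 30 min (the level of every count of these lists), with a median log2 fold of -0.03. Of all features 10.0% were called higher and 7.63% lower at that level at 30 min. Nearest were Ptges3, a prostaglandin E synthase that is also a chaperone partner, at 91.1 before and 102 CPM at 30 min (log2 fold 0.16 ± 0.0771, SE, edgeR adjusted p = 0.285), and Ptges, the inducible prostaglandin E synthase, at 5.33 and 6.44 CPM (0.28 ± 0.180, SE, adjusted p = 0.376). Ptges was at 7.77 CPM at 4 h, where it was the 1 of 15 called higher (log2 fold 0.50 ± 0.186, SE, edgeR adjusted p = 0.361). Ptges2 was the 1 called lower at 4 h (-0.13). Of all features 6.70% were higher and 4.63% lower at 4 h. At 24 h 2 of 15 were called higher, against 2.65% of features, Ptges (0.34) and the thromboxane synthase Tbxas1 (0.58), and none lower. The results at 4 h and 24 h were named after their values were seen. Samples 10 (4 h) and 11 (24 h) held 409 and 466 CPM of summed microglia markers, against a median of 221 CPM. These calls were not repeated without them. Of 6 genes of the Arl4 and Arf6 pathway 2 were called higher at 30 min, the Arf6 activators Cyth1 (0.24 ± 0.0796, SE, edgeR adjusted p = 0.248) and Cyth2 (0.12 ± 0.0583, SE, adjusted p = 0.281). Of 16 synaptic partners 1 was called lower, the neurotrophin receptor Ngfr, at about 1 CPM (-0.61 ± 0.287, SE, edgeR adjusted p = 0.272), and next was the glutamate receptor Grm5 (-0.19 ± 0.110, SE, adjusted p = 0.331).

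Of the 16 tested MAP kinase feedback inhibitors, 3 were called higher at 30 min, of which the ERK phosphatase Dusp5 (0.64 ± 0.220, SE, edgeR adjusted p = 0.248) and the EGF receptor inhibitor Errfi1 (0.22 ± 0.0880, SE, adjusted p = 0.252) had the smallest p, and Dusp14 was the other. At 4 h 5 of the 16 were lower and 1 higher, and at 24 h 4 were lower and 1 higher. Of all features, 4.63% were lower and 6.70% higher at 4 h, and 1.19% and 2.65% at 24 h. The lower ones included Dusp4, Spry2 and Spry4 at both times, named after their values were seen, with log2 folds of -0.53, -0.19 and -0.37 at 4 h and -0.45, -0.21 and -0.34 at 24 h, while Dusp2, at about 1 CPM, was the higher one at both. Of 7 tested genes of the Btg, Tob and Ier families 1 was called higher at 30 min, Ier3 (0.29 ± 0.144, SE, edgeR adjusted p = 0.281), and Btg1 was next (0.14 ± 0.0833, SE, adjusted p = 0.331). Of 22 other activity-induced effectors 5 were called higher at 30 min, with a median log2 fold of 0.20. Largest was Ccn1, a secreted matrix protein, at 9.43 before and 36.0 CPM at 30 min (1.85 ± 0.454, SE, edgeR adjusted p = 0.174), and Gadd45g, a growth arrest and DNA demethylation factor, followed at 6.70 and 19.3 CPM (1.44 ± 0.322, SE, adjusted p = 0.152). The other 3 were Rasd1, Gem and Cdkn1a, named with Dusp14 after their values were seen. Of the same 22, 4 were lower at 4 h (4.63% of features) and 5 at 24 h (1.19%), among them Pcsk1, Sik1 and Trib1 at both times, named after their values were seen. No gene of these 6 lists passed the adjusted threshold by edgeR at any time, and 10.0% of all features at 30 min were called higher at the unadjusted level and 7.63% lower.

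Per kilobase of exon, the 10 genes differed widely before injury. Arc was highest at 74.9 CPM per kilobase, followed by Dusp6 (22.7), Homer1 (19.5), Arl4d (18.1), Nptx2 (15.6), Dusp1 (13.4), Ier2 (8.99), Btg2 (7.51), Bdnf (4.54) and Ptgs2 (2.50), each the mean of 10 libraries. At 30 min the order was Arc (96.0), Arl4d (41.1), Dusp6 (27.0), Dusp1 (21.9), Homer1 (20.2), Nptx2 (19.7), Btg2 (18.0), Ier2 (14.4), Ptgs2 (7.75) and Bdnf (4.83), means of 9 libraries. Arl4d was thus below Dusp6 and Homer1 before injury and above both at 30 min, by these means. All of these lengths join the exons of every annotated transcript, so the level of a short induced form, as for Homer1 with 12 transcripts, is understated.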

How the data were processed

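Bulk RNA of the left somatomotor cortex was extracted with a Qiagen kit, and sequencing, alignment and counting were done by a service provider. The column names carry the ending of Salmon's gene-level output, and no aligner, version or counting option was given in the sources used here. The labels name mm10. The authors deposited estimated counts per gene for 40 libraries, not normalized, with 4.46% of values not whole, and all deposited values were rounded to whole numbers here. Of the 55539 feature IDs, 55536 were in GENCODE M21 (GRCm38). A feature was kept unless more than 4 libraries had under 10 counts of it, the rule of the study, and 15224 were kept. edgeR 4.0.16 (R 4.3.3) was used with TMM scaling, 12 groups in one fit, the quasi-likelihood test and Benjamini-Hochberg adjustment at 0.05. CPM used TMM-scaled library sizes, and log2 CPM a prior count of 1. Gene positions and exon lengths came from GENCODE M21 and promoter windows from RefSeq.

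The 10 genes and all gene lists were chosen with earlier results of these data known, and so was the split by sample number. Named genes were the 10, the 5 features most correlated with Ptgs2 and with Arl4d, and, for each list, members that passed the adjusted threshold in the averaged 30 min contrast or, where none did, up to 2 with the smallest p. Within groups, 46 pairs of libraries were compared by a chi-square per gene, and none agreed within sampling noise (smallest mean 6.85). The scripts were tested on simulated data. Alternatives were DESeq2 1.42.0, library size alone, no filter, filterByExpr, all 40 libraries, the sample number range as a covariate, only the groups compared, leaving out each library and, chosen after seeing the data, leaving out samples 10 and 11.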

Additional observations from a re-analysis of the deposited data

Results flagged for a closer look

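In the groups of 4 libraries, 40 combinations of gene and group were checked for a library far from its group, and 4 stood out. Chance alone gives about 1 in 20. Arc in 5xCHI at 24 h was at 41.2 CPM in sample 11, against 116 to 123 CPM in the other 3. Sample 11 is the library with the highest summed astrocyte markers (3697 CPM) and the lowest summed excitatory neuron markers (3158 CPM). The part of either in the low value was not tested. Nptx2 in 1xCHI at 24 h was at 44.7 CPM in sample 28, against 29.3 to 31.6 CPM in the others. Nptx2 in 3xCHI at 24 h was at 47.5 CPM in sample 2, against 35.3 to 37.3 CPM. Dusp6 in 3xCHI at 24 h was at 75.2 CPM in sample 37, against 50.9 to 54.6 CPM. The groups of 2 or 3 libraries, which hold the high samples 4, 8, 16, 10 and 22, are too small for this check.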

How the results depend on the processing

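No paired analysis was possible because the only replicate label is a sample number that no 2 groups share. Counts below are of the 8 tested genes by edgeR unless another tool is named. Counts under an alternative, here and above, are mostly not set against the share of all features in that fit, which moved too. No gene passed the adjusted threshold in the averaged contrasts under any alternative, except Btg2 at 30 min without sample 27 (adjusted counts of 0 to 1 over single libraries left out). In the 72 single tests the adjusted count of 0 became 1 (Btg2 at 30 min after the third injury) by DESeq2 and with no filter, and 0 to 1 over single libraries left out. At an unadjusted p under 0.05 the counts over single libraries left out ran from 1 to 3 at 30 min (3 with all libraries), 2 to 5 at 4 h (3), 2 to 5 at 24 h (4), 6 to 21 in the single tests (17), 1 to 4 for the difference between injuries (2) and 1 to 5 for injury number at 24 h (2). With no filter 5 were lower at 4 h, 6 were lower at 24 h, and 5 differed with injury number at 24 h, where the sample number range as a covariate left 1. For injury number the count was 1 without any one of samples 11, 18, 23, 25, 28 and 40 and 5 without sample 24. For the difference between injuries it was 1 without any one of samples 4, 20, 21, 22, 27 and 29 and 4 without sample 5, 8 or 24. The log2 fold of Homer1 at 30 min (0.04) ran from -0.037 without sample 6 to 0.12 without sample 35, with -0.0065 without sample 21, and that of Nptx2 at 4 h (0.24) from -0.033 without sample 16 to 0.34 without sample 15. Ptgs2 at 30 min was 1.02 without sample 8. CPM over total counts moved no group mean by as much as its SD. The cause was not tested. Over all features, 1 passed the adjusted threshold at 30 min and 0 at 4 h, against 27 and 43 by DESeq2, 11 and 22 with no filter and 2 and 3 with filterByExpr, and at 24 h the number of injuries gave 0 against 31 by DESeq2. Each of the 10 genes had at least 84 counts in every library, and what limits the number of calls was not compared.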

Other observations

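Sample 30, the 3xCHI 4 h library left out above, was below the highest Sham library in all 10 genes. Its Ptgs2 was at 11.4 CPM, between the 9.94 and 12.8 CPM of the other 3xCHI 4 h libraries. Its Arl4d, at 14.0 CPM, and its Arc, at 91.4 CPM, were below both of these libraries (19.8 and 26.5 CPM for Arl4d, 98.7 and 114 CPM for Arc), while its Homer1 (229.7 CPM), Bdnf (27.5 CPM), Nptx2 (38.2 CPM), Dusp1 (30.7 CPM), Dusp6 (61.1 CPM) and Btg2 (13.5 CPM) were above both.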
